A study of Saccharomyces cerevisiae with 72 samples.

Results

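The G1 cyclin circuit of budding yeast was followed through 10 genes, picked by name for their known roles: SWI4 (YER111C), SWI6 (YLR182W), MBP1 (YDL056W), WHI5 (YOR083W), CLN1 (YMR199W), CLN2 (YPL256C), CLN3 (YAL040C), PCL1 (YNL289W), PCL2 (YDL127W) and SVS1 (YPL163C). These were 10 of the 5424 coding regions counted by RNA-seq. SWI4 and SVS1 also had a counted 5′ extension region, the stretch that a longer transcript starting upstream adds, and these were 2 of 74 such regions. In both genes this region overlaps part of the proximal start cluster. In transcript leader sequencing (TL-seq), which counts capped 5′ ends, the 10 genes had 12 start site clusters, because SWI4 and SVS1 each had a distal cluster beside the proximal one, called PROX.

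The cells were SK1 diploids, MATa/MATα and homozygous at the loci named here, in which the CUP1 promoter drives IME1, the master transcription factor of meiotic entry, and IME4, an mRNA methyltransferase. Copper sulfate was added at 50 µM after 2 h in sporulation medium (SPO), so the 2 h libraries preceded induction and the 3 h and 4 h libraries followed it by 1 h and 2 h. The time course by RNA-seq compared a strain with wild-type UME6 tagged with 3V5 (irt1::pCUP1-3HA-IME1, ime4::pCUP1-3HA-IME4) with a strain whose tagged UME6 carried T99N (irt1::pCUP1-3HA-IME1, pCUP-IME4), with 3 libraries per strain at 0, 2, 3 and 4 h. The strains thus also differed in how IME4 was placed under CUP1 and in the selection marker beside the tagged UME6. Effects of these differences cannot be told apart from that of T99N. TL-seq, its RNA-seq and MNase-seq used another strain (pCUP-IME1, pCUP-IME4, amn1 of BY4741) with untagged UME6 at 2 h and 4 h. Ume6 ChIP-seq used a UME6-3V5 strain with irt1 and ime4 under CUP1, from saturated culture in presporulation medium and so at none of these times. The T99N substitution is used to block the binding of Ume6 to Ime1, while a cell with wild-type UME6 can turn Ume6 from a repressor into an activator once Ime1 is made.

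In the mitotic cell cycle, Swi4 binds DNA and Swi6 is its partner in the complex SBF, which turns on late G1 genes. Mbp1 takes the place of Swi4 in the sister complex MBF. Whi5 holds SBF off until the G1 cyclin Cln3, with the kinase Cdc28, starts its inactivation, and the cyclins Cln1 and Cln2, themselves SBF targets, complete it. Pcl1 and Pcl2 are G1 cyclins of a second kinase, Pho85, and SVS1 encodes a cell wall protein and is a classic SBF target. A G1 cyclin that stays on in starved cells keeps IME1 from being made and used, so this circuit opposes entry into meiosis. A long undecoded transcript isoform (LUTI) is a 5′-extended mRNA that starts at a distal promoter, is poorly translated and is made across the proximal promoter, where its transcription can repress the proximal transcript.

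The 24 libraries of the time course held between 5013206 and 20865934 reads in the counted features, with the T99N libraries (median 7704311) shallower than the wild-type ones (median 12899890). The TL-seq libraries held 3214263 to 8295842 reads in the set of replicates 1, 3 and 5. In the set of replicates 4 and 5 they held 1211795 to 3101075. The 4 RNA-seq libraries beside TL-seq held 3124472 to 4845107. The meiotic state was checked with 6 genes of recombination and chromosome axes (HOP1, REC8, SPO11, DMC1, ZIP1 and MEI5): all 6 rose between 2 h and 4 h in the wild-type strain, by 13.2-fold to 134-fold. With T99N, 4 of them rose, by 1.52-fold to 3.79-fold, and SPO11 and ZIP1 did not pass the threshold. DMC1, MEI5, REC8, ZIP1 and SPO11 were already higher in T99N than in the wild type before copper. The differences were 1.6-fold to 4.19-fold at 0 h and 1.49-fold to 4.59-fold at 2 h (edgeR, adjusted p of 0.026 or lower). HOP1 was not called at either time (adjusted p = 0.603 and 0.174). In IME1, T99N replicate 1 at 2 h stood apart from its group before copper. It held 1870.5 CPM, against 74.5 and 91.2 CPM in the other 2. CPM are counts scaled to library size with TMM factors, which adjust for the few genes that take up many reads. Results that change without that library are given both ways. Wild-type replicate 3 stood apart in MEI5, at 667 CPM at 3 h (232 and 213 CPM in the others). At 4 h it held 941 CPM of MEI5, against 415 and 358 CPM. UME6 mRNA itself was 3.8-fold higher in the T99N strain than in the wild-type strain at 0 h (515 to 587 against 124 to 152 CPM, edgeR adjusted p = 3.1e-05), before any induction.

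The upstream sequence of SWI4 is shown first so that its motif distances can be set beside those of the Ume6 summits. The site read by Ume6, URS1, has the core GGCGGC. It was searched on both strands in the 1200 bases before every coding start of the RefSeq R64 genome of S288C, a different strain from SK1, where 21.1% of 6008 genes held it and 3 of the 10 members did (SWI4, SWI6 and WHI5). SWI4 held it 2 times, with the core in capitals, 1082 and 551 bases before the coding start. The windows lie on the minus strand of R64 at chrV:386942-386969 and chrV:386411-386438.
SWI4 URS1 distal: aaatgcgtgtgGGCGGCtacaatgcgga
SWI4 URS1 proximal: caattaccttcGGCGGCtaaaaacaact
Both copies were on the same strand as the gene. In SK1, the summits of Ume6 ChIP-seq stood 1098, 1086 and 1086 bases before the coding start in the 3 replicates, at 82.9-fold, 72.6-fold and 83.8-fold over input, and a second set stood 521, 544 and 543 bases before it, at 89.6-fold, 106.1-fold and 105.1-fold. The distances were measured in different genomes and were not converted, so they are only set side by side.

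The sites of SBF and MBF are shown for the genes that SBF is known to turn on. SBF reads the SCB, searched here as CNCGAAA on both strands, and MBF reads the MCB, ACGCGT, which is the same on both strands. In the 600 bases before the coding start, 24.7% of all genes held an SCB and 6.34% an MCB. SCB matches stood in SWI4, CLN1, CLN2, PCL1, PCL2 and SVS1, 6 of the 10 members, which are largely genes known as targets, so the count is a description. SWI4 was the member with an MCB. Capitals mark the motif in each window of R64.
SWI4 MCB, chrV:386368-386395, 508 bases before the coding start: cgtttgaagtgACGCGTcactaaccatg
SWI4 SCB, chrV:386349-386377, 490 bases before it: actaaccatgaCGCGAAAgttaattatat
CLN2 SCB, chrXVI:67135-67163, 538 bases before it: cgtgttctagtCACGAAAcgcgccaaaaa
PCL1 SCB, chrXIV:87583-87611, 303 bases before it: atcgcgtccggCGCGAAAtttttcgcgga
PCL2 SCB, chrIV:234546-234574, 370 bases before it: acttcgcgtaaCACGAAAaatgctggtgc
SVS1 SCB, chrXVI:242894-242922, 211 bases before it: ttcttaagtaaTTTCGTGtttcaaataac
In SVS1 the match was on the strand opposite to the gene. In R64 the MCB and the farther SCB of SWI4 lay between its proximal URS1 core and the coding start.

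SWI4 itself switched from the PROX to the distal start. In TL-seq the PROX cluster (SK1 chrV:405531-405604, 322 bases before the coding start from its midpoint) held 154, 157 and 136 normalized reads at 2 h in replicates 1, 3 and 5, and 13.9, 47.2 and 38.7 at 4 h. The distal cluster (chrV:406169-406229, 953 bases before the coding start) held 0.842, 0 and 0 normalized reads at 2 h, which is 1 read in all, and 414, 382 and 438 at 4 h. Groups did not overlap at either cluster. PROX fell by 2.29 ± 0.41 (SE) on the log2(normalized reads + 1) scale (limma, adjusted p = 0.0019). The difference at the distal cluster was 8.39 ± 0.38 on that scale, which understates changes from near 0. It is given with no test, here and for SVS1, because distal clusters were kept in the study for a rise between these times in TL-seq. The distal start lies in the 1354 bases between the coding regions of SWI4 and its divergent neighbour LSM4 (YER112W).

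The share of SWI4 start reads at the distal cluster went from 0.543%, 0% and 0% at 2 h to 96.7%, 89.0% and 91.9% at 4 h. These rest on 184, 172 and 115 reads at 2 h, with exact 95% binomial upper limits of 2.99%, 2.12% and 3.16%, and on 492, 609 and 283 reads at 4 h. The mean difference was 92.4 percentage points. Intervals cover counting error only, since reads were not counted by molecule. The second table holds replicates 4 and 5, and its replicate 5 libraries are the same as those above. There the distal share was 92.9% and 94.4% at 4 h and 0 of 19 and 0 of 86 reads at 2 h. Distal and PROX reads together rose from 136 to 157 normalized reads at 2 h to 428 to 477 at 4 h, so the gene as a whole had more capped ends, nearly all of them distal, at 4 h.

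**Figure D1:**
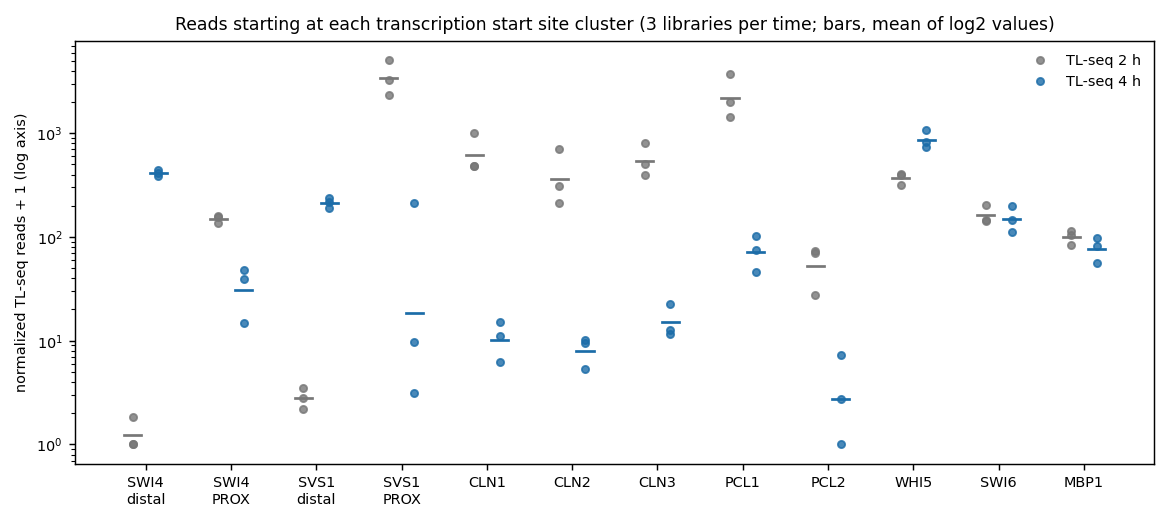
Normalized TL-seq reads plus 1 (log axis) at each member's start site cluster in the 3 libraries at 2 h (grey) and 4 h (blue), with bars at the mean of the log2 values. The SWI4 and SVS1 distal clusters go up from below 3 normalized reads, the PROX and cyclin clusters go down, WHI5 goes up, and SWI6 and MBP1 overlap between times.

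RNA-seq followed SWI4 through 4 times in both strains. Its extension region (SK1 chrV:405566-406190) overlaps part of the PROX cluster (chrV:405531-405604), so transcripts that start there can add reads to it. The region stood at 1.49, 0.279 and 0.558 CPM at 2 h in the wild-type strain, 121, 93.4 and 62.0 CPM at 3 h, and 66.9, 62.8 and 74.1 CPM at 4 h. The rise within 1 h of copper was 6.90 ± 0.39 on the log2 scale (edgeR, adjusted p = 3.2e-12), and between 3 h and 4 h the level did not pass the test (fell by 0.44 ± 0.25, adjusted p = 0.179). In the T99N strain the same region stood at 5.44, 2.64 and 2.65 CPM at 2 h, 5.89, 7.21 and 9.11 CPM at 3 h, and 21.2, 15.5 and 16.7 CPM at 4 h. The 3 h level did not pass against 2 h (1.02 ± 0.35, adjusted p = 0.093) and the 4 h level did (2.29 ± 0.32, adjusted p = 8.4e-04). The first-hour change was not alike in the strains, T99N minus wild type being -5.88 ± 0.55 (interaction, adjusted p = 2.5e-08).

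Before copper the order of the strains was the opposite. At 2 h the SWI4 extension region was 2.26 ± 0.48 higher on the log2 scale in the T99N strain (adjusted p = 0.0013), with no overlap between libraries, and the T99N library with early IME1 had the highest value. Without that library the difference was 1.79 (adjusted p = 0.013). How much PROX starts add to these low values was not tested. The region rose between 0 h and 2 h in that strain by 1.14 ± 0.45 (adjusted p = 0.046), a call that was lost without that library (0.67, adjusted p = 0.304). At 3 h and 4 h the region was lower in T99N, by 12.4-fold and 3.81-fold (adjusted p = 2.3e-09 and 6.1e-06).

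The SWI4 coding region, which both the PROX and the distal transcript cover, also rose after copper in the wild-type strain. It stood at 154, 111 and 132 CPM at 2 h in the wild-type strain, at 451, 385 and 463 CPM at 3 h and at 327, 324 and 402 CPM at 4 h. The T99N libraries stood at 183, 164 and 140.4 CPM, then 185, 158 and 176 CPM, then 269, 245 and 262 CPM. The wild-type strain rose 3.27-fold in the first hour (adjusted p = 1.1e-09) and the T99N strain did not pass the test there (1.07-fold, adjusted p = 0.770) but rose 1.5-fold in the second (adjusted p = 0.0080, lost without TMM at 0.176 and without replicate 1 or 2 at 0.055 and 0.075). A rise before copper, between 0 h and 2 h, was seen in both strains, 1.9-fold in the wild type and 1.49-fold in T99N (adjusted p = 1.8e-05 and 0.0026, the latter 0.078 without replicate 1).

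The ratio of the extension to the coding region, both in TPM, a scale that divides by the effective length, was taken to follow the long leader within SWI4 mRNA. Reads from PROX starts inside the extension region can add to this ratio. It was 0.0784, 0.0203 and 0.0341 at 2 h in the wild-type strain, and 1.65, 1.56 and 1.49 at 4 h. With T99N it was 0.24, 0.13 and 0.152 at 2 h, and 0.635, 0.511 and 0.514 at 4 h. Ratios above 1 cannot be shares, so only their order is read: the groups at 4 h did not overlap between strains, nor did those at 2 h, in opposite order.

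**Figure D2:**
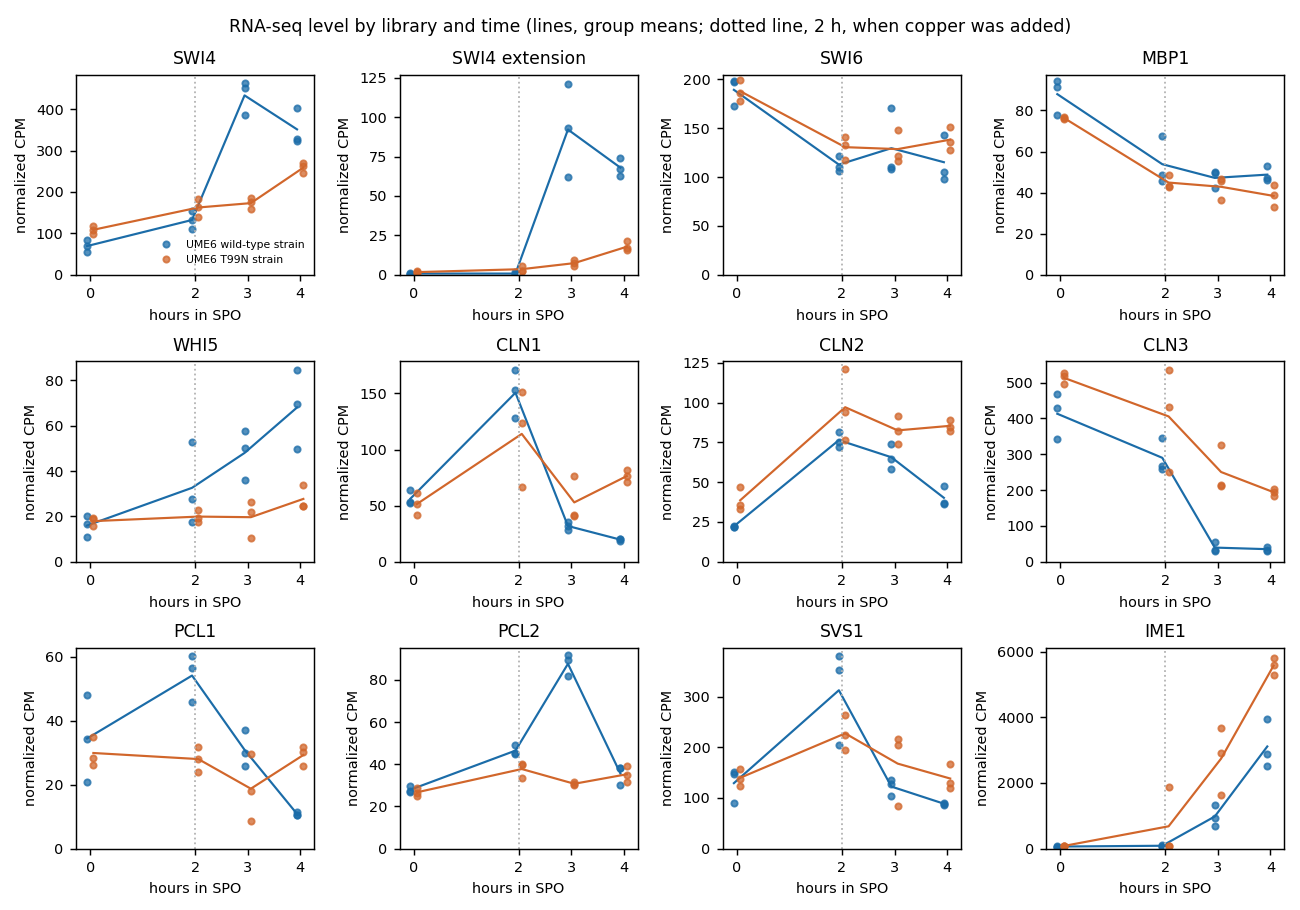
Normalized CPM by hours in SPO for the 10 members, the SWI4 extension region and IME1, with points for the 3 libraries per time and lines through the group means, in the wild-type UME6 strain (blue) and the T99N strain (orange). After copper at 2 h the wild-type strain shows the SWI4 extension at 62.0 to 121 CPM at 3 h and CLN3 at 31 to 53.6 CPM, while T99N shows 5.89 to 9.11 and 211 to 325 CPM at 3 h.

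Over the 8 groups of strain and time, the features most like the SWI4 coding region were AUS1, SPC97 and TEL2 (Pearson's r = 0.991, 0.99 and 0.99 of mean log2 CPM, 5385 features compared). Those most like the extension region were MPS2, IPL1 and REC8 (r = 0.993, 0.991 and 0.99). These are descriptions over 8 group means that share the libraries, with no test, and many features rose after copper in the wild-type strain.

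Ume6 bound next to SWI4, SVS1 and PCL1, 3 of the 10 members by the rule used (a summit over 4-fold within 300 bp of a start cluster in at least 2 of 3 replicates), against 14.7% of 5038 genes. At SWI4 the summit beside the PROX cluster was at 100.3 ± 9.25-fold (SD, n = 3) and that beside the distal cluster at 79.8 ± 6.22-fold. At SVS1 the summits stood at 5.5-fold, 17.0-fold and 16.6-fold, between -135.5 and -100.5 bases from the distal cluster, that is upstream of it. At PCL1 they stood at 17.9-fold, 21.3-fold and 13.9-fold, 327 to 334 bases before the coding start, a distance at which the R64 sequence has SCB matches (327, 303 and 294 bases) and no URS1 core. Weaker summits lay farther out at CLN1 (6.8-fold to 8.7-fold, 688 to 697 bases before the coding start) and CLN2 (5.1-fold to 7.7-fold, 569 to 574 bases), and a window of 500 bp would add both, while one of 150 bp would leave out PCL1. Since these cells were in saturated culture, the peaks say where Ume6 sat before SPO.

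Nucleosome occupancy around the SWI4 PROX start had lower pooled values at 4 h. The deposited values pool replicates, so they have no spread and no test. The nucleosome 44.5 bases upstream of the PROX midpoint went from 836.1 to 293.3 in summit occupancy, and the first one downstream, at 215.5 bases, from 1243.9 to 469.8, a ratio of 0.38. Of 5025 genes with a nucleosome within 250 bases downstream of their cluster, 0.0995% had a ratio at or below that, and the median was 0.87. Fuzziness, the spread of positions, went from 38.5 to 56.4 at that nucleosome, a gain that 0.179% of genes reached. At SVS1 the occupancy of the first nucleosome was 1270.2 and 1230.8, a ratio of 0.97. The ratio was 1.0 at PCL2, 1.11 at CLN3 and 0.61 at each of CLN1 and WHI5. Fuzziness changed by -5.5 at SVS1, -5.7 at PCL2, -4.3 at CLN3, 9.1 at CLN1 and 5.1 at WHI5. Shifts in nucleosome position were not compared.

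**Figure D3:**
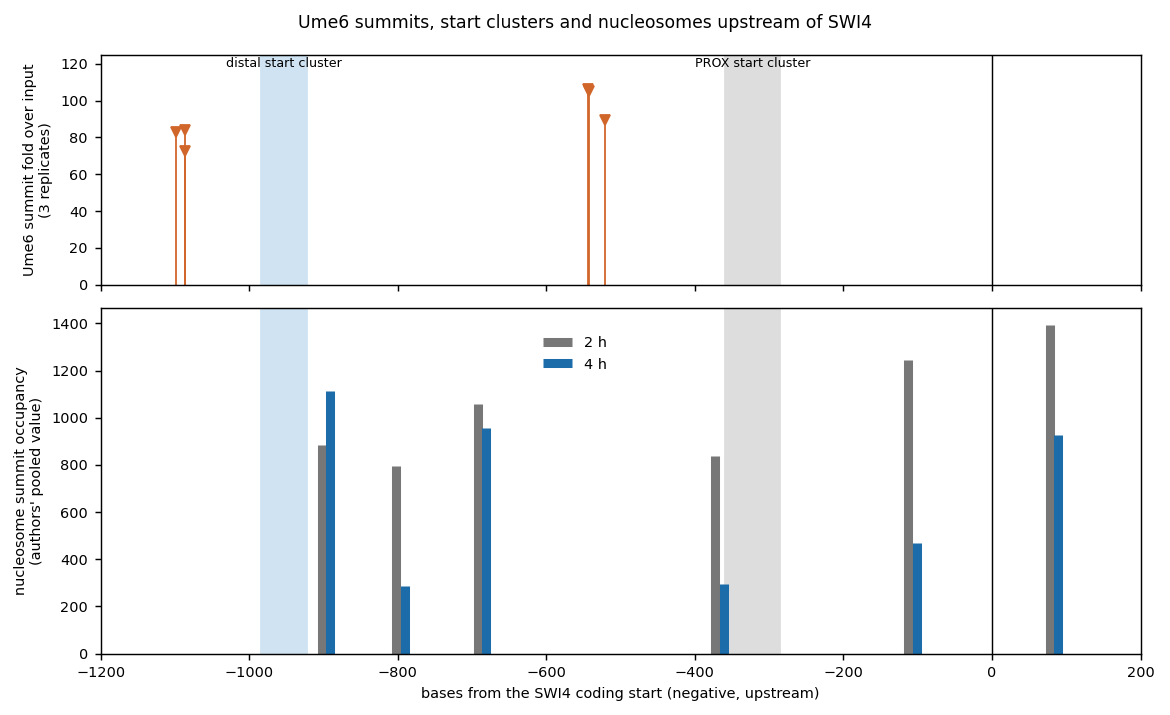
Upstream region of SWI4 by distance in bases from the coding start: top, fold over input of the Ume6 summits in 3 replicates. Bottom, pooled nucleosome summit occupancy at 2 h (grey) and 4 h (blue), with the distal and PROX start clusters shaded. A pair of Ume6 positions stands just upstream of the 2 start clusters, and occupancy near the PROX cluster goes from 836.1 to 293.3.

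SVS1, the other member with a LUTI, had a far larger PROX transcript to lose. Its PROX cluster (SK1 chrXVI:242795-242836) held 5086, 2344 and 3264 normalized reads at 2 h and 8.7, 2.11 and 212 at 4 h. Its distal cluster (chrXVI:242924-242981) held 2.53, 1.82 and 1.19 at 2 h and 215, 237 and 190.3 at 4 h. Replicate 5 at 4 h thus stood apart at PROX, while the distal values were close to each other. PROX fell by 7.51 ± 1.22 on the log2(normalized reads + 1) scale (adjusted p = 0.0011), by 9.30 without replicate 5, and the difference at the distal cluster was 6.26 ± 0.35, with no test as for SWI4.

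The distal share of SVS1 was below 0.1% in each 2 h library and 96.1%, 99.1% and 47.3% at 4 h (exact 95% binomial intervals 93.0% to 98.1%, 97.4% to 99.8% and 40.8% to 53.8%). The mean difference was 80.8 percentage points. In the second table the shares at 4 h were 77.5% in replicate 4 and 33.7% in replicate 5, the latter from the same library as the 47.3%. In contrast to SWI4, the distal and PROX reads together went down, from 2346 to 5089 normalized reads at 2 h to 224 to 402 at 4 h. In RNA-seq the coding region also fell, as given below. The SVS1 extension region (chrXVI:242821-242963) is 143 bases long, overlaps part of the PROX cluster and had an effective length of 5.9 bases, so its reads (2.57 to 8.55 CPM over the 24 libraries) are not specific to the long transcript.

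In the wild-type strain 8 of the 10 members were called between 2 h and 4 h, 2 higher and 6 lower, against 63.1% of the 5486 features tested (32.3% higher, 30.8% lower). The members' median change was -0.67 on the log2 scale against 0.02 over all features tested. SWI4 and WHI5 rose, the 5 cyclins CLN1, CLN2, CLN3, PCL1 and PCL2 fell together with SVS1, and SWI6 and MBP1 were not called. In the T99N strain 3 of 10 were called, against 20.8% of features: SWI4 rose, by 1.62-fold, and CLN3 and SVS1 fell, by 2.05-fold and 1.62-fold. The change differed between strains for 6 of 10 (SWI4, CLN1, CLN2, CLN3, PCL1 and SVS1), against 35.7% of features for this interaction. None of the 3 T99N calls passed without replicate 2, nor without replicate 3. Without 1 of these, the interaction was also lost for SWI4 (adjusted p = 0.160 and 0.083) and SVS1 (0.083 and 0.063), and that of CLN2 without replicate 1 (0.084) or without TMM (0.269). Libraries are of bulk cultures, in which fewer cells making an RNA and less of it per cell cannot be told apart.

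**Figure D4:**
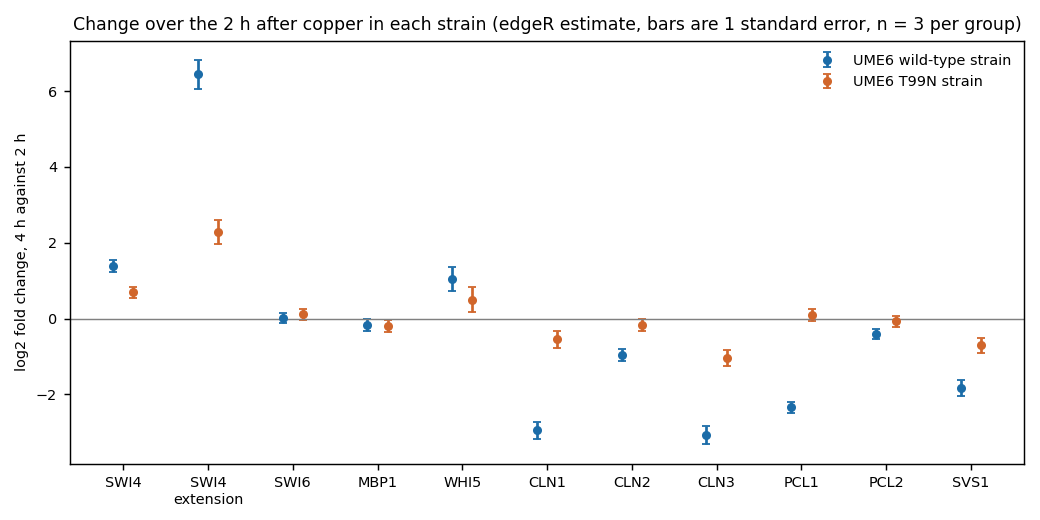
Log2 fold change from 2 h to 4 h with 1 standard error for each member and the SWI4 extension region, in the wild-type UME6 strain (blue) and the T99N strain (orange), 3 libraries per group. CLN1, CLN3 and PCL1 lie between -2.34 and -3.08 in the wild-type strain and between -1.04 and 0.09 in T99N, and SWI6 and MBP1 lie near 0 in both.

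CLN3, the most upstream G1 cyclin, had the largest estimated fall of the 10 members in the wild-type strain. It stood at 259, 345 and 266 CPM at 2 h in the wild-type strain, at 31.0, 33.4 and 53.6 CPM at 3 h and at 33.1, 30.1 and 41.5 CPM at 4 h. The first hour brought a 7.39-fold fall (adjusted p = 1.4e-09), and the second gave no call (1.13-fold lower, adjusted p = 0.595). The T99N values were 249.7, 534 and 433 CPM at 2 h and 204, 194 and 184 CPM at 4 h. That strain therefore also lost CLN3, but at 3 h and 4 h it had 6.38-fold and 5.57-fold more than the wild type (adjusted p = 1.1e-08 and 5.2e-08), with no overlap.

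CLN1, a late G1 cyclin and SBF target, rose before copper and fell after it. In the wild-type strain it stood at 51.9, 52.9 and 64.0 CPM at 0 h, 171, 128 and 153 CPM at 2 h, 35.2, 28.5 and 31.7 CPM at 3 h and 18.4, 20.4 and 20.1 CPM at 4 h. The rise was 2.67-fold (adjusted p = 3.6e-05) and the fall in the first hour 4.73-fold (adjusted p = 3.7e-08). The T99N values were 66.9, 151 and 124 CPM at 2 h and 70.7, 81.6 and 76.7 CPM at 4 h, the lowest 2 h value being that of the library with early IME1. The fall to 4 h was not called there (0.55 ± 0.22 on the log2 scale, adjusted p = 0.087) and was called without that library (fell by 0.81, adjusted p = 8.3e-04), and at 4 h T99N had 3.88-fold more CLN1 than the wild type (adjusted p = 1.1e-06).

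CLN2, which is closely related to CLN1 in sequence and role, kept its level for longer. It rose 3.44-fold between 0 h and 2 h in the wild-type strain (22.0 to 22.7 CPM, then 72.3 to 81.7 CPM, adjusted p = 1.3e-08). It stood at 64.6, 58.2 and 74.2 CPM at 3 h and 36.6, 36.2 and 47.7 CPM at 4 h. The first hour was not called (fell by 0.22 on the log2 scale, adjusted p = 0.206), and its sign depends on the scaling: without TMM, where the median coding region was at 0.65, it was at 0.39 (adjusted p = 0.048). The second hour was called as a 1.64-fold fall (adjusted p = 8.2e-04), and at 4 h T99N (82.2 to 89.2 CPM) was 2.13-fold above the wild type (adjusted p = 5.5e-06).

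PCL1, a Pho85 cyclin, fell in steps. In the wild-type strain it stood at 45.8, 56.5 and 60.1 CPM at 2 h, 25.7, 30.0 and 37.0 CPM at 3 h and 11.4, 10.6 and 10.5 CPM at 4 h. The first hour brought a 1.75-fold fall (adjusted p = 0.016), lost without TMM (adjusted p = 0.550) or without replicate 2 (0.156), and the second a 2.85-fold fall (adjusted p = 3.7e-04). T99N had 28.1, 31.9 and 24 CPM at 2 h and 30.2, 31.8 and 25.8 CPM at 4 h (1.06-fold, adjusted p = 0.717). The strains differed at 2 h, where T99N was 1.94-fold lower (adjusted p = 0.013), and at 4 h, where it was 2.69-fold higher (adjusted p = 5.1e-04), so the order of the strains turned over. The difference at 2 h was lost without replicate 2 (adjusted p = 0.129).

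PCL2, also a Pho85 cyclin, peaked at 3 h in the wild-type strain. It stood at 49.2, 44.8 and 45.4 CPM at 2 h, 91.7, 89.6 and 81.7 CPM at 3 h and 38.3, 38.2 and 30.2 CPM at 4 h. With TMM it was the 1 cyclin of the 5 called higher in the first hour (1.89-fold, adjusted p = 2.4e-07), and it fell 2.46-fold in the second (adjusted p = 2.8e-08), a course that 2 h and 4 h alone do not show. In the T99N strain it stayed between 30.0 and 40.0 CPM from 2 h to 4 h, and its first-hour change minus that of the wild type was -1.21 ± 0.16 (interaction, adjusted p = 3.0e-06). Its smaller fall from 2 h to 4 h in the wild type (0.40 ± 0.13 on the log2 scale, adjusted p = 0.016) was lost without TMM (fell by 0.02, adjusted p = 0.934), and without replicate 2 or 3 (adjusted p = 0.063 and 0.098).

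WHI5, the repressor of SBF, was higher at 4 h than at 2 h in the wild-type strain, where the cyclins were lower. In the wild-type strain it stood at 17.3, 53.0 and 27.5 CPM at 2 h and 69.6, 84.7 and 49.9 CPM at 4 h, and the groups overlapped because replicate 2 was already high at 2 h. The rise was 2.06-fold (adjusted p = 0.010) and not called without replicate 1 (0.70 on the log2 scale, adjusted p = 0.068). T99N had 22.9, 19.3 and 17.5 CPM at 2 h and 34.0, 24.4 and 24.7 CPM at 4 h, a difference that did not pass (1.41-fold, adjusted p = 0.308). The interaction was not called either (-0.55 ± 0.46, adjusted p = 0.380), so the rise is not shown to differ between strains. Without TMM, where the median coding region was at -0.424, it was -1.04 (adjusted p = 0.047). At 3 h and 4 h T99N had less WHI5 (2.46-fold at each, adjusted p = 0.0022 and 0.0024, the former 0.057 without replicate 3). TL-seq gave a clearer rise, from 318, 408 and 397 normalized reads to 814, 735 and 1063, with no overlap (2.31-fold, limma, adjusted p = 0.0026).

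SVS1 in the wild-type strain stood at 204, 380.5 and 353 CPM at 2 h and 88.4, 86.6 and 90.6 CPM at 4 h, a 3.58-fold fall (adjusted p = 4.3e-06). In T99N it stood at 194, 264 and 224 CPM and 129.7, 166 and 119 CPM, a 1.62-fold fall (adjusted p = 0.029, and 0.056 when all 24 libraries shared the fit). At 4 h the difference between strains did not pass (1.56-fold, adjusted p = 0.051).

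SWI6 and MBP1, the shared subunit and the DNA-binding subunit of MBF, fell early and then stayed. Between 0 h and 2 h in the wild type, SWI6 went from 173 to 198 CPM to 106 to 122 CPM (1.68-fold lower, adjusted p = 4.5e-04) and MBP1 from 78.0 to 94.4 CPM to 45.6 to 67.5 CPM (1.63-fold lower, adjusted p = 2.4e-04). From 2 h to 4 h their changes were 0.01 ± 0.14 and -0.16 ± 0.16 on the log2 scale (adjusted p = 0.947 and 0.386). In TL-seq they were -0.12 ± 0.28 and -0.38 ± 0.28 (adjusted p = 0.763 and 0.305), with overlapping libraries. SWI6 and MBP1 thus gave no call in the hours in which SWI4 changed its start, with standard errors of 0.14 to 0.28.

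Step by step, the members called in the wild-type strain were 8 of 10 between 0 h and 2 h (50.1% of all features), 6 of 10 between 2 h and 3 h (66.2%) and 4 of 10 between 3 h and 4 h (38.7%). Before copper 6 of the 8 were higher: SWI4, WHI5, CLN1, CLN2, PCL2 and SVS1, with overlapping libraries for WHI5, whose call was lost without replicate 2 (0.67, adjusted p = 0.196). In the first hour SWI4 and PCL2 were higher and CLN1, CLN3, PCL1 and SVS1 lower, and in the second the 4 were lower (CLN1, CLN2, PCL1 and PCL2), CLN1 not without replicate 2 or 3 (adjusted p = 0.070 and 0.102). In the T99N strain the counts were 7 of 10 (41.9% of features), 1 of 10 (4.52%, CLN1 lower) and 1 of 10 (14.2%, SWI4 higher). Leaving out 1 replicate number brought these to as few as 4, 0 and 0, and without the library with early IME1 they were 7, 3 and 1. The steps of one strain share the libraries of the time between them.

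Between strains, 2 of 10 members were called at 0 h (37.0% of features), 2 of 10 at 2 h (41.9%), 6 of 10 at 3 h (57.0%) and 7 of 10 at 4 h (52.7%). At 0 h CLN2 and SWI4 were higher in T99N, by 1.74-fold and 1.56-fold (adjusted p = 0.0013 and 0.0024, that of SWI4 0.108 without replicate 2). At 2 h PCL1 and PCL2 were lower, the latter not without the library with early IME1 (adjusted p = 0.147), replicate 1 (0.258), replicate 2 (0.168) or TMM (0.390). At 3 h CLN1 and CLN3 were higher in T99N and SWI4, WHI5, PCL1 and PCL2 lower, and at 4 h CLN1, CLN2, CLN3 and PCL1 were higher and SWI4, WHI5 and MBP1 lower. Of these the SWI4 call at 4 h was lost without any 1 replicate number (adjusted p = 0.052 to 0.090). That of MBP1 was lost without replicate 2 or 3 (0.207 and 0.239) or with DESeq2 (0.066). The PCL1 call at 3 h was lost without replicate 2 or 3 (0.210 and 0.456). The CLN1 call at 3 h was lost without TMM (0.43 on the log2 scale, adjusted p = 0.124). The difference in the change from 2 h to 3 h, a test added after these values were seen, was called for 4 of 10 (SWI4, CLN1, CLN3 and PCL2), against 43.8% of features. That of CLN1 was lost without replicate 1 (0.55, adjusted p = 0.099) and without TMM (0.75, 0.066).

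At the start sites the cyclins had larger estimated falls than in whole RNA. Apart from both distal clusters, TL-seq called 8 of the 10 member clusters, WHI5 higher and 7 lower, against 48.4% of the 5114 clusters tested (24.6% higher, 23.8% lower). CLN1 went from 999, 479.7 and 484 normalized reads to 5.22, 14.1 and 10.1, and CLN2 from 711, 211 and 308 to 4.35, 9.16 and 8.42. CLN3 went from 806, 505 and 391 to 21.7, 10.6 and 11.8, PCL1 from 3707, 1445 and 1994 to 45.2, 74.7 and 101, and PCL2 from 72.4, 26.4 and 68.8 to 1.74, 6.34 and 0. None of these groups overlapped.

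On the log2(normalized reads + 1) scale the changes were -5.92 ± 0.40 for CLN1, -5.49 ± 0.46 for CLN2, -5.18 ± 0.35 for CLN3, -4.96 ± 0.39 for PCL1 and -4.26 ± 0.75 for PCL2 (limma, adjusted p = 4.6e-06, 1.8e-05, 4.9e-06, 1.2e-05 and 0.0017). RNA-seq of replicates 4 and 5 of the same strain called 8 of 10 members, against 53.4% of features, in the same directions as in the wild-type UME6 strain. The log2 changes there were -3.20 ± 0.39, -1.83 ± 0.35, -2.83 ± 0.17, -4.46 ± 0.40 and -1.41 ± 0.20 in the same order (edgeR, adjusted p = 0.0011, 0.0063, 1.3e-04, 4.0e-04 and 0.0019). The assays count different things (1 cluster of capped ends against all reads over the coding region), and the difference between them was not tested. The TL-seq changes came from replicates 1, 3 and 5, so only replicate 5 is common to both sets.

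Among 20 other SBF and MBF targets, 6 rose and 12 fell between 2 h and 4 h in the wild-type strain, where 32.3% of all features rose and 30.8% fell, and 2 rose and 5 fell in T99N, where 20.8% of features were called. Their median change was -0.69 on the log2 scale in the wild type, against 0.02 over all features, and 0.0 in T99N. The largest falls were those of AXL2 (6.21-fold), a marker of bud sites, MNN1 (6.06-fold), a Golgi mannosyltransferase, and CRH1 (5.17-fold), a cell wall enzyme, with adjusted p of 3.5e-08, 6.7e-08 and 2.8e-07. The largest rises were those of TOS4 (5.93-fold), a protein with a forkhead-associated domain, NRM1 (3.97-fold), a repressor of MBF, and HCM1 (2.32-fold), a forkhead transcription factor, with adjusted p of 2.6e-07, 3.2e-07 and 1.7e-05. Except for HCM1, whose change was 1.16 in T99N and 1.21 in the wild type (interaction adjusted p = 0.881), each of the 6 differed between strains. The 6 were picked by their wild-type change, and the interaction uses the same libraries. Its calls here therefore lean toward a difference and are a description.

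Among 26 other regulators of Start and partners of these cyclins, 9 rose and 12 fell in the wild type, and 7 rose and 3 fell in T99N, against those same shares of all features. Their medians were -0.19 and 0.1, against 0.02 and 0.0 over all features. WHI3, an RNA-binding protein that restrains CLN3 mRNA, rose 2.79-fold, and CKS1 and CDC28, the partner and the kinase of the cyclins, rose 2.23-fold and 1.91-fold (adjusted p = 4.7e-07, 2.1e-05 and 1.3e-05). MSA2, a co-activator of G1 genes, fell 3.85-fold, FAR1, an inhibitor of Cdc28, 2.73-fold, and PCL10, a Pho85 cyclin, 2.71-fold (adjusted p = 1.5e-04, 5.0e-05 and 1.6e-06). WHI3, CKS1 and CDC28 also rose in T99N, by 0.53, 0.56 and 0.5 on the log2 scale (edgeR, adjusted p = 0.013, 0.025 and 0.013). The interaction was called for WHI3 and CKS1 (adjusted p = 0.0013 and 0.047) and not for CDC28 (0.059). MSA2 stood at 18.4 ± 3.64 CPM (SD, n = 3) at 4 h in the wild type and 77.6 ± 11.2 CPM in T99N, and its change differed between strains by 2.52 on the log2 scale (adjusted p = 8.7e-04). These genes were also picked by their wild-type change, so the same limit holds for their interactions.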

How the data were processed

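SK1 yeast were measured by RNA-seq, TL-seq, Ume6 ChIP-seq and MNase-seq. The deposited expected counts of RNA-seq came from the authors' salmon runs on SK1 coding and extension regions, with TPM beside them, and were rounded here. The deposited TL-seq signal is reads per cluster (cutadapt, STAR and CAGEr) divided by the authors' size factors, and 100.0% of values gave whole reads. The authors' macs2 peaks, on libraries cut to an equal number of reads, give a fold enrichment ratio over input, and their DANPOS table gives a pooled summit signal and a fuzziness score. Depth is given in the report, and is not given in the peak and nucleosome tables.

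RNA-seq was tested with edgeR 4.0.16 (quasi-likelihood, TMM, filterByExpr) in R 4.3.3, with DESeq2 1.42.0 as an alternative. The changes from 2 h to 4 h used the 12 libraries of those times, other contrasts all 24. TL-seq was tested with limma 3.58.1 on log2(normalized reads + 1) with a variance trend. P-values were adjusted (Benjamini-Hochberg) across every feature tested, with calls at 0.05 for RNA-seq and 0.1 for TL-seq. Standard errors of edgeR are the change over the root of F. Methods were tested on simulated data. Exact intervals used scipy 1.17.1, and the planned test of distal shares is not given because the clusters were chosen on that contrast.

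The members and lists were chosen with earlier results of these data known. Named were all 10 members, both extension regions, and in each list the 3 largest rises and falls past the threshold without overlap. Labels do not say whether replicates were separate cultures, so p-values measure the spread between these libraries. The main tests did not pair libraries by replicate number. Same-number correlations were 0.159, 0.168 and 0.382 in TL-seq, where other pairs ranged from -0.344 to 0.258. In the wild-type strain at 3 h and 4 h they were 0.389, 0.633 and 0.837, where other pairs ranged from -0.783 to 0.655. The 3 h interaction and fits without T99N replicate 1 at 2 h were added after the data were seen. The histone table and the authors' fold changes and p-values were not used here, nor was a table with 12 columns of normalized counts.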

Additional observations from a re-analysis of the deposited data

Results flagged for a closer look

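Changes after copper, which cannot be told apart from time in SPO, that differed between the wild-type UME6 and T99N strains were singled out by the test of the difference itself (edgeR interaction, T99N minus wild type, log2). From 2 h to 3 h they were 1.14 for CLN1, 2.19 for CLN3, -1.21 for PCL2, -1.62 for SWI4 and -5.88 for the SWI4 extension region. That of CLN1 became 0.55 without replicate 1 (adjusted p = 0.099). From 2 h to 4 h they were 2.41 for CLN1, 0.79 for CLN2, 2.04 for CLN3, 2.43 for PCL1, 1.14 for SVS1, -0.70 for SWI4 and -4.15 for the SWI4 extension region. Each group held 3 libraries, too few for a test of single outlying samples.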

How the results depend on the processing

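Of the RNA-seq and TL-seq counts of members called, those in the T99N strain moved most. From 2 h to 3 h the count of 1 became 2 with DESeq2, 0 without TMM, 0 to 3 when 1 replicate number was left out and 3 without T99N replicate 1 at 2 h. From 3 h to 4 h it became 0 without TMM and 0 to 2 with a replicate left out, from 2 h to 4 h 0 to 4, and from 0 h to 2 h 4 to 7. Between strains, leaving out a replicate gave 1 to 2 calls at 0 h and 0 to 3 at 2 h. A window of 500 bp gave 5 members with Ume6 in place of 3. The causes were not tested, except that fewer libraries were fitted. Values near 0 changed sign. Without TMM, where the median coding region moved to -0.424 in the interaction from 2 h to 4 h and to 0.65 and 0.396 in the wild type at 3 h and 4 h, these were PCL2 (-0.05) and SWI6 (-0.30) in the interaction from 2 h to 4 h, and, in the wild type, CLN2 from 2 h to 3 h (0.39) and MBP1 from 2 h to 4 h (0.21). SWI6 in the wild type from 2 h to 4 h was -0.01 with no filter and 0.0 with the replicate block. With a replicate left out, that SWI6 value ranged from -0.20 to 0.12, MBP1 from -0.32 to 0.04, PCL2 in T99N from -0.23 to 0.03, and the SWI6 cluster in TL-seq from -0.41 to 0.05. In the interaction MBP1 ranged from -0.27 to 0.09, and was 0.03 without T99N replicate 1 at 2 h, and SWI6 from -0.02 to 0.29. With the replicate block, calls between strains at 4 h were 8 in place of 7. In the interaction from 2 h to 3 h they were 5 in place of 4. Same-number correlations between strains ranged from -0.331 to 0.526. The block gave the same number of calls in the other comparisons. T99N libraries were shallower, which limits low features such as the SWI4 extension region there.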
